A study of Mus musculus with 25 samples.

Results

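The subject here is a set of 10 myeloid C-type lectin receptor genes, Clec7a, Clec5a, Clec4a1, Clec4a2, Clec4a3, Clec4d, Clec4e, Clec4n, Clec10a and Clec12a, chosen by name from the 30749 genes of the deposited table. RNA had been sequenced from tumour-associated macrophages sorted from mouse models of glioblastoma (GBM), a malignant brain tumour. Monocyte-derived macrophages (MDM), which reach a tumour from the blood, gave 2 libraries from type 2 transplanted tumours, 1 from type 2 spontaneous, 4 from type 1 transplanted and 2 from type 1 spontaneous tumours. Microglia, the resident macrophages of the brain, gave 3 libraries from each of these 4 tumour classes. Tumours of both types belong to lineage-based models, per the series title. The labels name no strain, age, driver allele, cell of origin or sort gate, nor whether the libraries within a class come from different or pooled mice. Every p-value therefore rests on library-to-library spread, which may be technical. Normal brain microglia, labelled in 4 samples, were not analysed here.

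C-type lectin receptors are surface proteins that bind sugars, lipids and proteins of microbes and of damaged or dying cells. The activating ones signal through the kinase Syk and the adaptor Card9 to NF-kB and drive phagocytosis and cytokine production, either through a motif in their own tail, as Dectin-1 (Clec7a) does, or through a partner such as the Fc receptor gamma chain (Fcer1g) or DAP12 (Tyrobp). The inhibitory ones carry a tail motif that recruits phosphatases and dampens other receptors. In the brain, Clec7a is a widely used marker of microglia near damage and amyloid.

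In the RefSeq annotation of GRCm38.p6, 9 of the 10 genes lie on chromosome 6 and Clec10a lies on chromosome 11, at chr11:70166623-70170836. The 6 genes named Clec4 sit within 368 kb, at chr6:122921848-123289871. Clec7a (chr6:129461591-129472785) and Clec12a (chr6:129349783-129365303) are close neighbours on the same chromosome, and Clec5a lies apart from both at chr6:40574898-40585805. Promoter sequence was available in RefSeq's tables for 8 of the 10, and the 250 bases before the listed start are shown for 4 genes that stand for the contrasting patterns below. Clec7a and Clec5a were the members lower in MDM, Clec12a was above microglia in every MDM library, and Clec4e was higher in MDM with a wide spread in both cell types.
Clec7a: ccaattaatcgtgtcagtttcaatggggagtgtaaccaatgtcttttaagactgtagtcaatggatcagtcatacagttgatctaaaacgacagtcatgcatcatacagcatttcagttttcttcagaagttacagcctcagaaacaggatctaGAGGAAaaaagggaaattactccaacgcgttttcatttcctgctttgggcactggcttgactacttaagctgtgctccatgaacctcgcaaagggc
Clec5a: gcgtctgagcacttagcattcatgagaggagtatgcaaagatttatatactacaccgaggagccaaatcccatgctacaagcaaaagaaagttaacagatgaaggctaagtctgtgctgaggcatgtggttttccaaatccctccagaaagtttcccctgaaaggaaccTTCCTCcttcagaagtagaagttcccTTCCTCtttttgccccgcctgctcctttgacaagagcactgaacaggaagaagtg
Clec4e: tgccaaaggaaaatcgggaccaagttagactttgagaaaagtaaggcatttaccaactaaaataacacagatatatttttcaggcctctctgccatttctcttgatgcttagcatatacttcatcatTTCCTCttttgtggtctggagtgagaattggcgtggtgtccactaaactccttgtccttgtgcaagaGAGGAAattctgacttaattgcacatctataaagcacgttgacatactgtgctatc
Clec12a: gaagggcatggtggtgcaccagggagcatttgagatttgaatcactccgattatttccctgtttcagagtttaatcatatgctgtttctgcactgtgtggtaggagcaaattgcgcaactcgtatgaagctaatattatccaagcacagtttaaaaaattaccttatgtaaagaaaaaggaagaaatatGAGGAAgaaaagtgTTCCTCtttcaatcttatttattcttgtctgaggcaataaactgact
These windows are chr6:129472780-129473029 (minus strand) for Clec7a, chr6:40585806-40586055 (minus strand) for Clec5a, chr6:123289872-123290121 (minus strand) for Clec4e and chr6:129349994-129350243 (plus strand) for Clec12a, each printed 5′ to 3′ along the strand of the gene. The listed starts of Clec7a and Clec12a lie inside the outer ends of the annotated genes, so these windows precede 1 of several possible starts. Capitals mark GAGGAA, the core of the purine-rich box recognised by the macrophage transcription factor PU.1, or its reverse complement TTCCTC. The letters stood on either strand in 6 of the 8 member windows, against 23.1% of 27025 promoter windows of the same length. TTGCNNAA, a form of the C/EBP site, stood in 2 of the 8 windows (9.55% of all windows), namely those of Clec4e and Clec12a. TGANTCA, a form of the AP-1 site, stood in 1 of the 8, that of Clec12a (6.87% of all). Matches to the 3 motifs may overlap, and a match is a description of the letters, not a site shown to be bound. GAGGAA stood in the windows of both members lower in MDM and of 4 members higher in MDM, and its letters were in neither the Clec4a2 nor the Clec4a3 window.

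Levels are normalised read counts, that is reads divided by 1 size factor per library, over totals of 26530069 to 50365607 reads. The cell type labels were checked against marker lists. All 10 microglia markers were lower in MDM and all 10 markers of monocyte-derived cells were higher. The MDM libraries also held RNA of lymphocytes. Summed normalised counts of 12 T and NK cell genes were 153318 to 185825.5 in the 4 MDM libraries of type 1 transplanted tumours and 261629 in type 2 transplanted MDM replicate 1, against 6782 to 33630.3 in the other 4 MDM libraries and 115.5 to 3948 in microglia. The type 1 transplanted MDM libraries were also lowest in the microglia list, at 11494 to 19356, against 30076 to 231967 in the other 5 MDM libraries and 604239 to 1432027 in microglia. Genes of border-associated macrophages summed to 984 to 1531 there, against 8361 to 18573 in the other 5 MDM libraries. The monocyte-derived list itself was lowest there too, at 86904 to 116612, against 121163 to 690827 in the other 5 MDM libraries. B cell genes summed to 16801 to 40711 there and to 23345 in type 2 transplanted MDM replicate 1, against 618 to 3510 in the other 4. Type 1 spontaneous microglia replicate 2 held more of the monocyte-derived list (86021) than the other 11 microglia libraries (2422 to 16349). In bulk RNA, fewer cells of a type and less RNA per cell cannot be told apart. Between the cell types, values are also given below without the 5 lymphocyte-rich MDM libraries. The comparisons by type and by model in MDM and their interactions need the type 1 transplanted MDM libraries and have no value without them.

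**Figure D1:**
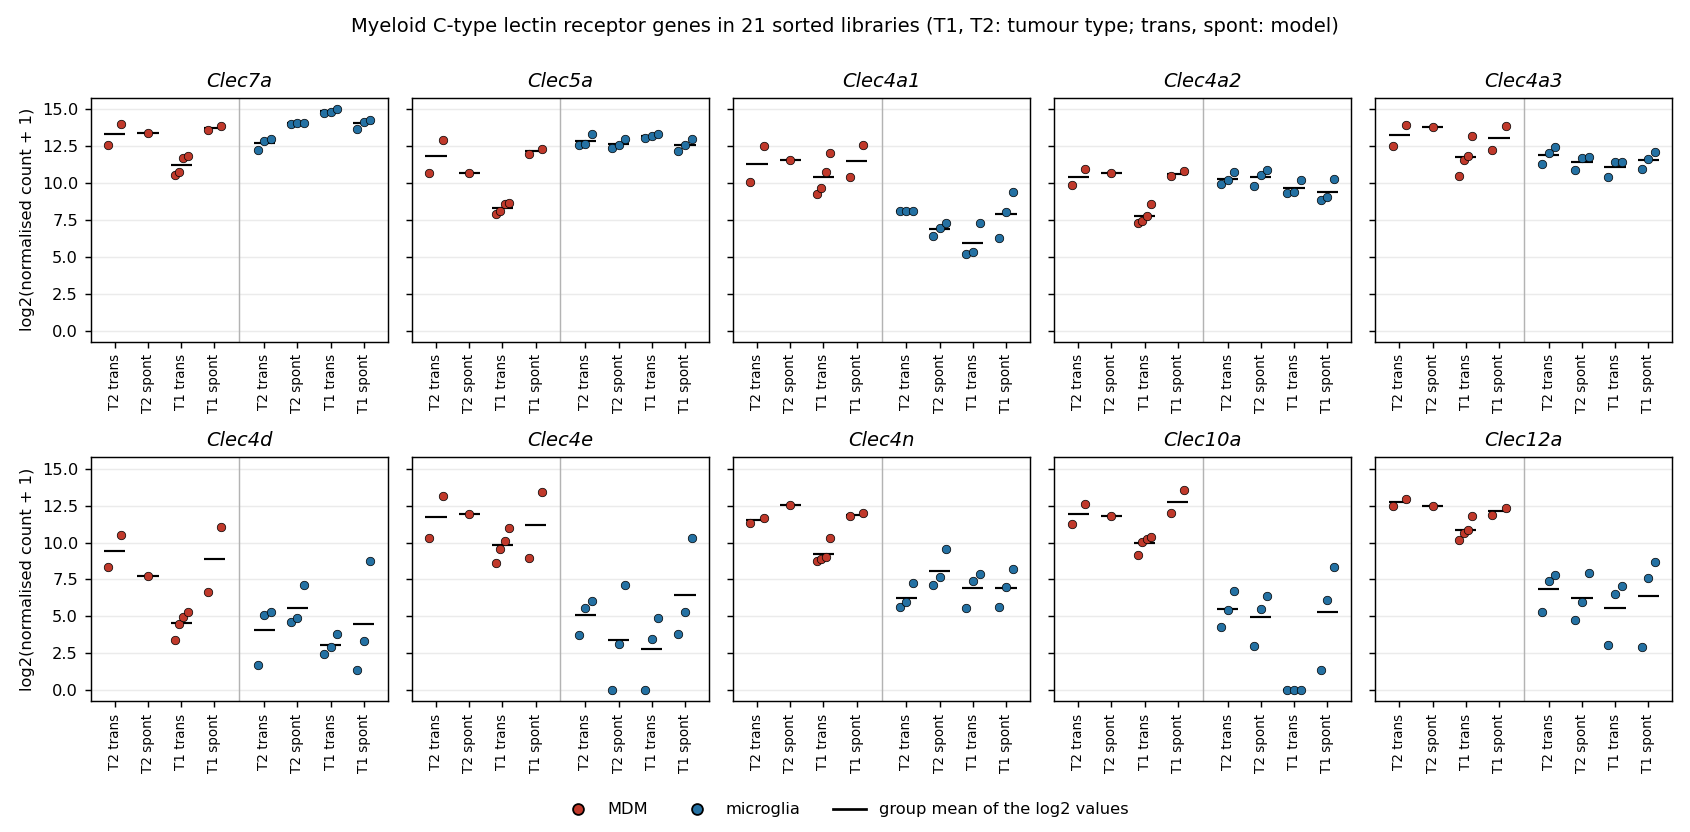
Log2(normalised count + 1) of each of the 10 genes in all 21 libraries, with MDM in red left of microglia in blue and a line at each group mean. Clec10a and Clec12a stood above all microglia libraries in every MDM library, while Clec7a and Clec5a were lowest in the 4 type 1 transplanted MDM libraries.

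The receptors differed in abundance and their order differed between the cell types. Per kilobase of exon, the median normalised count in MDM was highest for Clec4a3 (4454), then Clec7a (2318), Clec4n (1853), Clec4a1 (1089.9), Clec10a (859), Clec12a (689), Clec5a (423), Clec4a2 (318), Clec4e (253) and Clec4d (62.1). In microglia the order per kilobase ran from Clec7a (6522) through Clec4a3 (2271), Clec5a (1888), Clec4a2 (368), Clec4n (101), Clec4a1 (100.2), Clec12a (20.3), Clec4d (11.4) and Clec10a (10.5) to Clec4e (4.15). Neighbours in this order often overlapped. Clec4a3 exceeded Clec7a in 8 of 9 MDM libraries, but Clec4n exceeded Clec4a1 in 4 of 9 and Clec4a2 exceeded Clec4e in 2 of 9. In microglia, Clec7a exceeded Clec4a3 in 10 of 12 libraries and Clec5a exceeded Clec4a2 in 12 of 12, whereas Clec4n exceeded Clec4a1 in 7 of 12 and Clec12a exceeded Clec4d in 6 of 12. Microglial RNA held Clec7a, Clec4a3, Clec5a and Clec4a2 in quantity, and the other 6 receptors at much lower levels.

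**Figure D2:**
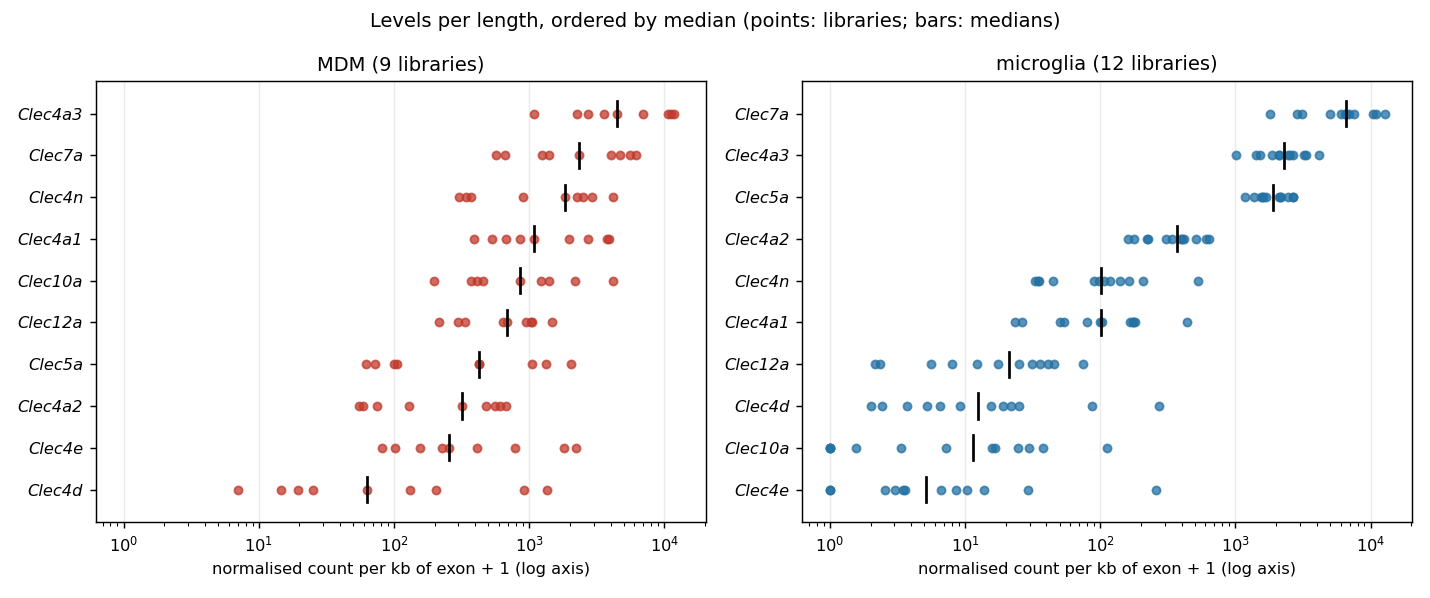
Normalised counts per kilobase of exon plus 1 on a log axis, for 9 MDM libraries (left) and 12 microglia libraries (right), with genes ordered by their median (black bar). Clec4a3 led in MDM with a median of 4454 and Clec7a led in microglia with 6522.

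Between the cell types, 7 of the 10 receptors were higher in MDM, 2 were lower and 1, Clec4a2, did not pass the test. Clec10a, Clec4e and Clec12a showed the largest rises, and Clec5a and Clec7a were the 2 that fell. The comparison averaged the 4 tumour classes with equal weight, in limma-trend fitted to all 21 libraries with Benjamini-Hochberg adjustment over 17216 genes. A fold change is on the log2(normalised count + 1) scale, and the value after ± is its standard error. In this comparison 42.7% of all tested genes were called at an adjusted p under 0.05, with 23% higher and 19.8% lower. The median log2 fold change was 3.67 over the 10 receptors and 0.07 over all genes tested.

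Clec7a encodes Dectin-1, a receptor for beta-glucan that signals through its own tail and Syk. Normalised counts of Clec7a were 6116 and 16403 in type 2 transplanted, 10593 in type 2 spontaneous, 3723, 1758, 1507 and 3299.6 in type 1 transplanted, and 12392 and 14584 in type 1 spontaneous MDM. The microglia libraries held 4764, 7508.5 and 8217 in type 2 transplanted, 17067, 17341.5 and 16039 in type 2 spontaneous, 27275, 33535 and 28999 in type 1 transplanted, and 18197, 20039.7 and 13186 in type 1 spontaneous microglia. MDM and microglia separated fully in type 1 transplanted tumours, where MDM held the lowest Clec7a of all libraries and microglia the highest, and they overlapped in the type 2 transplanted and type 1 spontaneous classes. The share of all genes so separate within a class was not computed. Averaged over the classes, Clec7a was lower in MDM (log2 fold change of -1.01 ± 0.21, adjusted p = 0.000707). It passed the test in 1 of the 4 classes. Within type 1 transplanted tumours Clec7a fell by 3.64 on the log2 scale (SE 0.34, adjusted p = 3.5e-07), with 34.1% of genes called. Fold changes in the other classes did not pass the test, at 0.59 ± 0.41 in type 2 transplanted tumours (adjusted p = 0.343, 18% of genes called), -0.67 ± 0.51 in type 2 spontaneous (adjusted p = 0.483, 10.7%) and -0.33 ± 0.41 in type 1 spontaneous tumours (adjusted p = 0.638, 13.4%). Counting receptors by class, 6 were higher in MDM and 0 lower in type 2 transplanted tumours (9.52% of genes higher), 5 higher and 1 lower in type 2 spontaneous (4.97% higher, 5.73% lower), 5 higher and 3 lower in type 1 transplanted (18.2% higher, 15.9% lower), and 4 higher and 0 lower in type 1 spontaneous tumours (8.52% higher). Without the 5 MDM libraries highest in T and NK cell genes, which removes the type 1 transplanted class, the average turned to 0.10 ± 0.18, adjusted p = 0.742.

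Clec5a encodes MDL-1, which has no signalling motif and pairs with DAP12 (Tyrobp) or DAP10 (Hcst). MDM libraries held 1634 and 7884 in type 2 transplanted, 1625 in type 2 spontaneous, 402, 382, 235.5 and 273 in type 1 transplanted, and 4001 and 5101 in type 1 spontaneous tumours. Counts of Clec5a in microglia were 6432, 10233 and 6125 in type 2 transplanted, 6102, 8071 and 5234 in type 2 spontaneous, 10294, 9386 and 8394 in type 1 transplanted, and 8153.5, 5979.5 and 4541 in type 1 spontaneous tumours. Microglia stayed within a range of 4541 to 10294, whereas the MDM libraries spanned 235 to 7884, with all 4 type 1 transplanted ones at the bottom and clear of every other library. Clec5a was lower in MDM on average (log2 fold change of -2.08 ± 0.24, adjusted p = 1.44e-06). By class, the fold change was -4.88 ± 0.39 in type 1 transplanted tumours (adjusted p = 6.75e-08) and -1.97 ± 0.58 in type 2 spontaneous tumours (adjusted p = 0.0366, 1 MDM library), but -1.04 ± 0.46 in type 2 transplanted (adjusted p = 0.128) and -0.42 ± 0.46 in type 1 spontaneous tumours (adjusted p = 0.592), which did not pass. The type 2 spontaneous call was lost without microglia replicate 1 (adjusted p = 0.0653) or 2 (adjusted p = 0.0856) and likewise with no filter (adjusted p = 0.0687), with the same total per library (-1.75, adjusted p = 0.0666) and in a fit of the groups compared alone (adjusted p = 0.11). In type 2 transplanted tumours the value depended on which MDM library was kept, at -2.18 (adjusted p = 0.00123) without replicate 3 and 0.09 without replicate 1. Without the 5 lymphocyte-rich MDM libraries Clec5a remained lower, at -0.77 ± 0.21, adjusted p = 0.0173.

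Clec4n (Dectin-2, a receptor for mannose-rich sugars), Clec4d (MCL) and Clec4e (Mincle, a receptor for mycobacterial glycolipid and for a nuclear protein released by dead cells) all signal through Fcer1g. All 3 were higher in MDM. Clec4n held 2631 and 3190.3 in type 2 transplanted, 5930.2 in type 2 spontaneous, 1275.5, 479, 429.7 and 528 in type 1 transplanted, and 3530.0 and 4135 in type 1 spontaneous MDM. In microglia Clec4n was between 45.5 and 751 with a median of 144, and no class overlapped between cell types (log2 fold change of 4.24 ± 0.42, adjusted p = 2.55e-07). How many of all genes were separate within each class was not computed. Clec4e was more uneven. Its normalised counts were 1254 and 9042 in type 2 transplanted, 3871 in type 2 spontaneous, 774, 401, 1119 and 2049 in type 1 transplanted, and 504 and 11077 in type 1 spontaneous MDM. Microglia held 12.3, 46.5 and 64.1 in type 2 transplanted, 0, 139.7 and 7.70 in type 2 spontaneous, 28.3, 10.2 and 0 in type 1 transplanted, and 37.9, 1275 and 12.9 in type 1 spontaneous microglia, where a value of 0 is a library without a read. Type 1 spontaneous microglia replicate 2, the microglia library richest in monocyte-derived genes, was the highest of the 12 for Clec4e and exceeded 5 of the 9 MDM libraries. Over the classes Clec4e had a log2 fold change of 6.73 ± 1.02, adjusted p = 3.07e-05. Clec4d encodes a partner of Mincle. Its counts were 324 and 1456 in type 2 transplanted, 210.1 in type 2 spontaneous, 21.6, 9.60, 29.7 and 38.5 in type 1 transplanted, and 99.3 and 2171 in type 1 spontaneous MDM, while in microglia it was between 1.61 and 434 with a median of 18.2 (log2 fold change of 3.35 ± 0.88, adjusted p = 0.00456), and the cell types overlapped. Neutrophils are a known source of Clec4d and Clec4e RNA. Of 10 neutrophil genes, 6 to 10 had reads in an MDM library and 2 to 10 in a microglia library, with summed counts of 1454 to 14806.5 in MDM against 10239.7 to 27744.5 in microglia, and Ly6g was between 0 and 12.7 normalised counts in all 21 libraries. Such a sum can rest on few genes and is a poor gauge of neutrophils. Type 1 transplanted microglia replicate 1 had reads of only 2 of the 10 and still summed to 10239.7. Replicate 2 of the type 2 spontaneous microglia, with reads of all 10 genes, was second among microglia for both Clec4d and Clec4e. But replicate 2 of the type 2 transplanted microglia, also with reads of all 10 and with the highest sum, held Clec4d at 2.29 and Clec4e at 46.5. The part of neutrophils in these results was not tested.

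Clec4a2, Clec4a3 and Clec4a1 encode the closely related dendritic cell immunoreceptors DCIR1, DCIR3 and DCIR4, of which DCIR1 carries an inhibitory tail motif. Their patterns differed. Clec4a2 averaged 958 ± 749 in MDM (SD, n = 9) against 1070.2 ± 463 in microglia (SD, n = 12), and its fold change did not pass the test (log2 fold change of -0.07 ± 0.25, adjusted p = 0.859). Without the 5 lymphocyte-rich MDM libraries it was 0.72 ± 0.31, adjusted p = 0.124. The average joined classes of opposite sign. Clec4a2 was lower in MDM of type 1 transplanted tumours (-1.88 ± 0.41, adjusted p = 0.00134), where the MDM libraries held 216, 158, 169.7 and 375 against 1183, 659 and 646 in microglia, and it was 1.24 ± 0.48 in type 1 spontaneous tumours (adjusted p = 0.0991). Clec4a3 was higher in MDM, with 8032 ± 5523 against 3131 ± 1183 in microglia (log2 fold change of 1.44 ± 0.34, adjusted p = 0.0019). Its MDM libraries held 5909.8 and 15581 in type 2 transplanted, 13999 in type 2 spontaneous, 3584, 1446, 3012 and 9170.5 in type 1 transplanted, and 4741 and 14848 in type 1 spontaneous MDM. Clec4a3 in microglia was 4290.5, 5500.0 and 2494 in type 2 transplanted, 3542, 3337 and 1883 in type 2 spontaneous, 2791, 2765 and 1336 in type 1 transplanted, and 2022.5, 3237 and 4378 in type 1 spontaneous microglia. The cell types overlapped within type 1 transplanted tumours and were separate in the other 3 classes. Clec4a1 showed the strongest rise of the 3 (log2 fold change of 3.99 ± 0.49, adjusted p = 3.13e-06), with MDM libraries at 609 to 6115 against microglia at 35.0 to 677, and in each single class the lowest MDM library exceeded the highest microglia library. A class holds only 1 to 4 MDM libraries against 3 of microglia. For Clec4a3 and Clec4a1 alike, the share of all genes separate within a class was not computed. By class, Clec4a1 counts were 1049.9 and 5874 in type 2 transplanted, 3066 in type 2 spontaneous, 819, 609, 1698 and 4237 in type 1 transplanted, and 1335 and 6115 in type 1 spontaneous MDM. Replicate 2 of type 1 spontaneous microglia held the most Clec4a1 of the 12 microglia libraries.

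Clec10a encodes MGL1, a receptor for galactose and N-acetylgalactosamine on macrophages and dendritic cells. Its normalised counts were 6296 and 2489.9 in type 2 transplanted, 3568 in type 2 spontaneous, 1064, 573, 1188 and 1310.0 in type 1 transplanted, and 4082 and 12024 in type 1 spontaneous MDM. The microglia libraries held 18.0, 106 and 42.7 in type 2 transplanted, 83.0, 45.0 and 6.84 in type 2 spontaneous, 0, 0 and 0 in type 1 transplanted, and 68.1, 324 and 1.61 in type 1 spontaneous microglia. Every MDM library was above every microglia library, and the 3 type 1 transplanted microglia libraries had no Clec10a read. Against a floor of 3 reads in each of those libraries, MDM of the same class were at least 314-fold higher, a bound that covers counting error only. Over the classes Clec10a had a log2 fold change of 7.69 ± 0.71, adjusted p = 1.22e-07, the largest of the 10. Clec12a (MICL), an inhibitory receptor for uric acid crystals from dead cells, separated as cleanly. MDM held 5738 and 8096 in type 2 transplanted, 5815.5 in type 2 spontaneous, 1862, 1183, 1636 and 3547 in type 1 transplanted, and 5263 and 3812 in type 1 spontaneous MDM, whereas microglia were between 6.45 and 408.5 with a median of 112 (log2 fold change of 5.81 ± 0.70, adjusted p = 2.53e-06). Across all 21 libraries these were the 2 receptors with no overlap between cell types. The share of all genes without such overlap was not computed, while the test between cell types called 42.7% of genes. Clec10a and Clec12a are also expressed by dendritic cells, and 10 of 11 dendritic cell markers were higher in MDM, with summed counts of 16288 to 80139 in MDM against 707 to 2994 in microglia. Their part in these results was not tested. Transcripts of Clec10a share 8.49% of their 50-base words with Mgl2 and those of Clec4a2 share 3.85% with Clec4a4, so a part of their reads may have been assigned to, or lost with, a near copy.

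**Figure D3:**
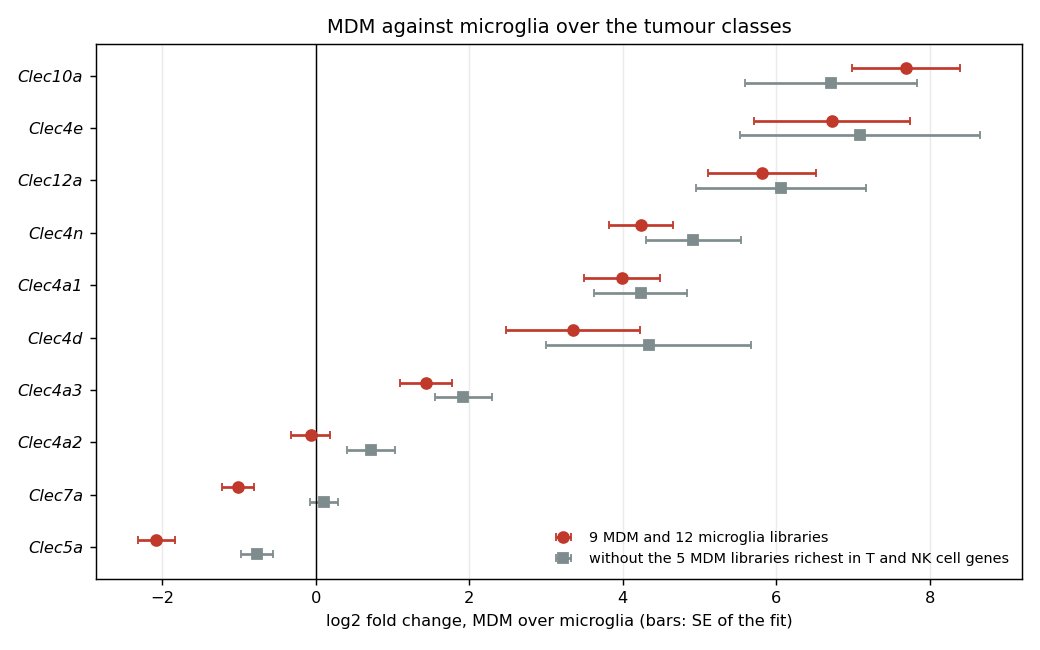
Log2 fold change of MDM over microglia for the 10 genes with the standard error of the fit, from all 21 libraries (red) and without the 5 MDM libraries richest in T and NK cell genes (grey). Clec7a is at -1.01 with all libraries and 0.10 without the 5, Clec5a at -2.08 and -0.77, while the 7 higher genes stay above 1.

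All 7 rises held without the 5 lymphocyte-rich MDM libraries, with 6.71 ± 1.12, adjusted p = 0.00101 for Clec10a and 6.06 ± 1.11, adjusted p = 0.00183 for Clec12a. In that fit 8 receptors and 4133 genes were called. When type 1 spontaneous microglia replicate 2 was left out as well, 8 receptors and 4347 genes were called.

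Within microglia, none of the 10 receptors was called by tumour type or by model. In type 2 over type 1 tumours limma called 0 of 10, and 0.47% of all genes. At an unadjusted p under 0.05 there were 3 receptors, and with voom on the recovered reads again 0 were called. In transplanted over spontaneous tumours it called 0 of 10, and 1.84% of all genes, with 1 receptor at an unadjusted p under 0.05 and 0 called by voom. The medians over the receptors were 0.46 for type and -0.31 for model, against -0.02 and 0.04 over all genes tested. Clec7a came closest by type (log2 fold change of -1.09 ± 0.26, adjusted p = 0.0781). It passed with array weights (-1.21 ± 0.24, adjusted p = 0.0126) and in a fit of the microglia libraries alone (adjusted p = 0.0278). Its values, given above, show where the difference lay. All 3 type 2 transplanted microglia libraries, at 4764, 7508.5 and 8217, were below the other 9, and all 3 type 1 transplanted ones, at 27275, 33535 and 28999, were above them. The spontaneous classes overlapped, at 17067, 17341.5 and 16039 in type 2 and 18197, 20039.7 and 13186 in type 1 tumours.

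Single-class contrasts, chosen after these values were seen, gave Clec7a a log2 fold change of -2.17 ± 0.36, adjusted p = 0.00912 for type 2 over type 1 transplanted microglia, where 0.378% of genes were called, 0.349% as lower. The call was lost without type 1 transplanted microglia replicate 2 (adjusted p = 0.0565) or without type 2 transplanted microglia replicate 1 (adjusted p = 0.0688). The same contrast in spontaneous tumours gave -0.01 ± 0.36 (0.0581% of genes called). Transplanted over spontaneous type 2 microglia gave -1.34 ± 0.36, adjusted p = 0.134, with 0.558% of genes called, and reached adjusted p = 0.0155 with array weights. The type difference in transplanted minus that in spontaneous microglia was -2.16 ± 0.51 and did not pass the test (adjusted p = 0.262). In that interaction of type and model in microglia 0 of 10 receptors and 0.0116% of genes were called, with 4 receptors at an unadjusted p under 0.05 and 0 called by voom. Clec5a stayed between 4541 and 10294 in all 12 libraries and differed by -0.13 ± 0.29 between types. The ratio of Clec7a to Clec5a counts within a library was 0.741, 0.734 and 1.34 in type 2 transplanted microglia, against 2.15 to 3.57 in the other 9.

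**Figure D4:**
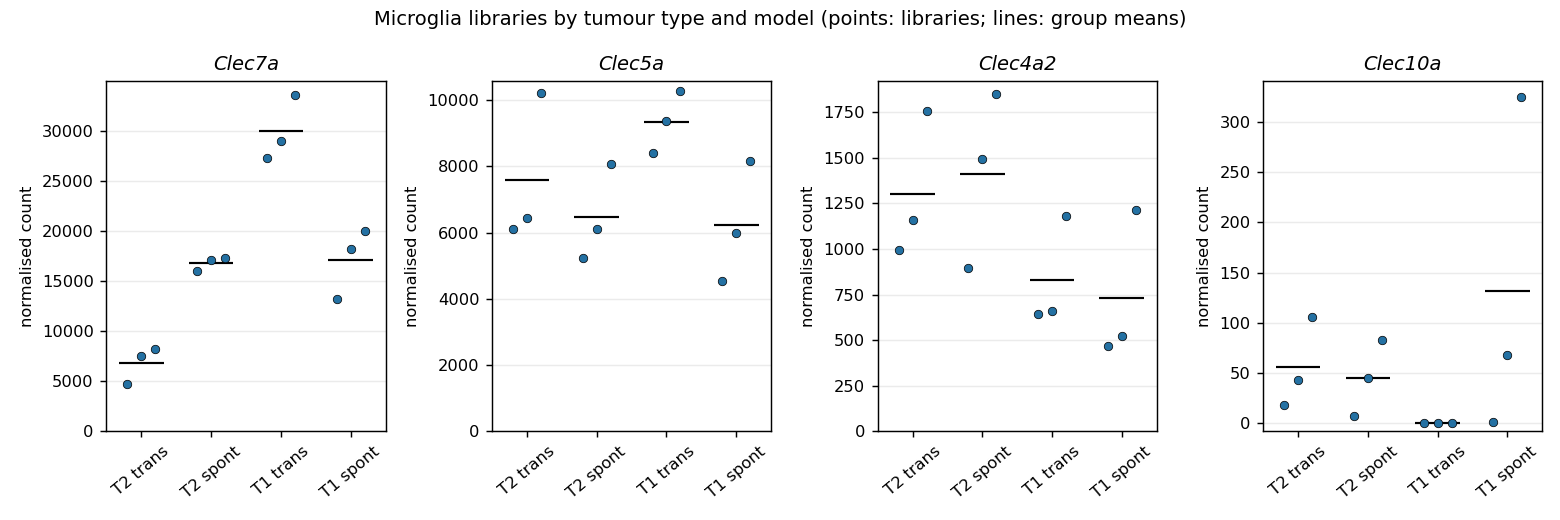
Normalised counts of Clec7a, Clec5a, Clec4a2 and Clec10a in the 3 microglia libraries of each tumour class, with lines at group means. Clec7a is lowest in type 2 transplanted tumours (4764 to 8217) and highest in type 1 transplanted tumours (27275 to 33535), and Clec10a has no read in type 1 transplanted tumours.

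Clec4a2 was 1303 ± 402 and 1414 ± 485 in type 2 transplanted and type 2 spontaneous microglia, against 829.6 ± 306 and 734 ± 418 in type 1 transplanted and type 1 spontaneous microglia (SD, n = 3 each), and the types overlapped (log2 fold change of 0.84 ± 0.31, adjusted p = 0.378). Clec10a had the largest fold change by model (log2 fold change of -2.38 ± 0.86, adjusted p = 0.15). It was called lower in transplanted tumours with array weights (-3.20 ± 0.59, adjusted p = 0.00265), without type 1 spontaneous microglia replicate 3 (adjusted p = 0.00966) and without type 2 spontaneous microglia replicate 3 (adjusted p = 0.0476). By type, Clec10a had the largest fold change of the 10 (log2 fold change of 2.58 ± 0.86, adjusted p = 0.3). Both values averaged unlike classes. Clec10a was 55.6 ± 45.3 in type 2 transplanted and 45.0 ± 38.1 in type 2 spontaneous microglia (SD, n = 3 each). In type 1 it was 0 in transplanted and 131 ± 170 in spontaneous microglia. Its interaction of type and model was 5.80 and was not called in the main fit. The remaining 7, Clec5a, Clec4a1, Clec4a3, Clec4d, Clec4e, Clec4n and Clec12a, had fold changes between -0.36 and 1.02 by type, with standard errors of up to 1.24, so differences of several-fold were not detectable for the low ones.

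In MDM, Clec7a, Clec5a and Clec4a2 varied by tumour class. Type 2 over type 1 transplanted MDM (2 against 4 libraries) called 3 of the 10, all higher in type 2, in a comparison that called 5.91% of genes, 2.96% of all genes as higher. These were Clec5a (log2 fold change of 3.51 ± 0.44, adjusted p = 0.000309), Clec4a2 (log2 fold change of 2.64 ± 0.46, adjusted p = 0.00322) and Clec7a (log2 fold change of 2.07 ± 0.38, adjusted p = 0.0049). Both type 2 libraries were above all 4 type 1 libraries for each of the 3, as the values above show, with Clec4a2 at 929.6 and 1959 in type 2 and 216, 158, 169.7 and 375 in type 1. The same held for Clec4n, Clec4d, Clec10a and Clec12a, which were not called. The share of all genes separate in 2 against 4 libraries was not computed. The spread between the 2 type 2 libraries was wide, and without replicate 3 Clec7a was 1.36 (adjusted p = 0.214) and Clec4a2 2.10 (adjusted p = 0.135), with Clec5a still called at 2.37. A fit of these 6 libraries alone called none of the 3, with adjusted p = 0.103 for Clec7a and 0.0569 for Clec5a and for Clec4a2. Clec4d (log2 fold change of 4.89 ± 1.60, adjusted p = 0.0783) and Clec4n (log2 fold change of 2.25 ± 0.76, adjusted p = 0.0897) did not pass, and both did with voom on the recovered reads. The median log2 fold change was 2.04 over the 10 receptors and -0.03 over all genes tested.

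Transplanted over spontaneous type 1 MDM (4 against 2 libraries) called 4 of the 10, all lower in transplanted tumours, with 13.7% of genes called and 7.96% lower. Clec5a (log2 fold change of -3.84 ± 0.44, adjusted p = 4.69e-05), Clec4a2 (log2 fold change of -2.86 ± 0.46, adjusted p = 0.000561) and Clec7a (log2 fold change of -2.49 ± 0.38, adjusted p = 0.000409) were lower by more than their spread, and none of their groups overlapped. The groups were also separate for Clec4n, Clec4d, Clec10a and Clec12a. The share of all genes separate in 4 against 2 libraries was not computed. Clec4n was 1275.5, 479, 429.7 and 528 in transplanted tumours, against 3530.0 and 4135 in spontaneous ones (log2 fold change of -2.64 ± 0.76, adjusted p = 0.0269). Its call was lost without either spontaneous library (adjusted p = 0.085 and 0.178), without transplanted replicate 2, 3 or 4 (adjusted p = 0.052 to 0.0637), with no filter (adjusted p = 0.0567) and when all libraries were scaled to the same total (-2.11, adjusted p = 0.0676). With that scaling the all-gene median shifted by 0.54. Clec4a1, Clec4a3, Clec4d, Clec4e, Clec10a and Clec12a did not pass, with fold changes between -4.33 (Clec4d) and -1.05 (Clec4a1).

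The comparisons by type and by model in MDM share the 4 type 1 transplanted libraries, so their values are not independent. Among the 9 MDM libraries these 4 ranked below 1 other in T and NK cell genes, as given above, and the part of these cells in the result was not tested. The same 4 were the lowest of the 9 in the monocyte-derived list. By model all 10 receptors had negative fold changes, with a median of -2.57 against 0.03 over all genes tested.

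**Figure D5:**
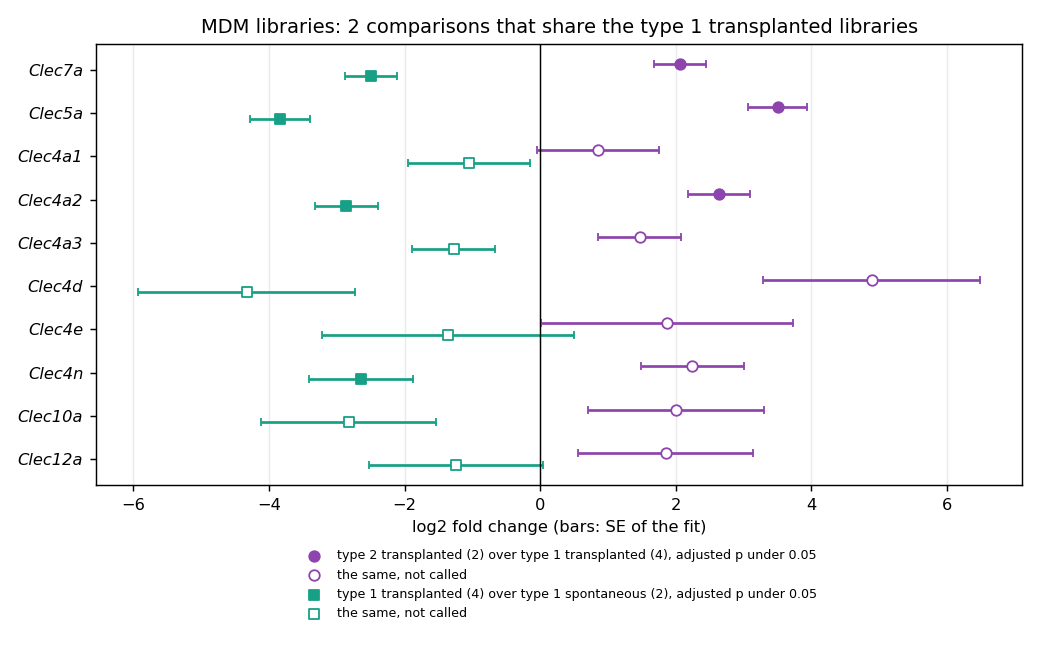
Log2 fold changes in MDM with the standard error of the fit, for type 2 over type 1 transplanted tumours (circles) and for transplanted over spontaneous type 1 tumours (squares), filled where the adjusted p is under 0.05. Clec5a has the largest called change in both, at 3.51 and -3.84.

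The cell types were then compared for how far model and type moved them. In type 1 tumours the model difference was lower in MDM than in microglia for 3 of the 10 receptors, with 4.51% of genes called and 3.12% lower. The interaction was -4.46 ± 0.60 for Clec5a (adjusted p = 0.00121), -3.31 ± 0.53 for Clec7a (adjusted p = 0.00312) and -3.12 ± 0.63 for Clec4a2 (adjusted p = 0.0106). Clec7a had estimates of opposite sign in MDM and microglia, at -2.49 ± 0.38 in MDM and 0.82 ± 0.36 in microglia, although the microglial value alone did not pass the test (adjusted p = 0.384, 0.267% of genes called). In transplanted tumours the type difference was higher in MDM than in microglia for 2 of the 10, Clec7a (interaction 4.23 ± 0.53, adjusted p = 0.00244) and Clec5a (interaction 3.84 ± 0.60, adjusted p = 0.00739), with 0.749% of genes called and 0.395% higher. Clec4n, Clec4d, Clec4e, Clec10a, Clec12a, Clec4a1 and Clec4a3 passed in neither interaction.

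Clec4e and Clec4d are neighbours in the genome and encode receptors that pair on the cell surface, and their ratio was not alike in all MDM classes. The ratio of Clec4e to Clec4d normalised counts within a library, a description that carries the length of both transcripts, was 3.87 and 6.21 in type 2 transplanted MDM, 18.4 in type 2 spontaneous, 35.8, 41.7, 37.7 and 53.2 in type 1 transplanted, and 5.07 and 5.10 in type 1 spontaneous MDM. The 4 type 1 transplanted libraries had the highest ratios, with Clec4d at 9.60 to 38.5 normalised counts and Clec4e at 401 to 2049.

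Among 25 genes of the pathway below these receptors, all tested, 16 were higher in MDM, 3 were lower and 6 did not pass, against 42.7% of all genes called, with a median log2 fold change of 0.75 beside 0.07 over all genes. The Src-family kinases Fyn (2.85 ± 0.30, adjusted p = 5.07e-07) and Fgr (2.35 ± 0.26, adjusted p = 9.29e-07), the exchange factor Vav3 (5.41 ± 0.78, adjusted p = 1.96e-05) and the NF-kB subunit Nfkb1 (0.92 ± 0.14, adjusted p = 2.17e-05) had the smallest p. Fyn is also a kinase of T cells. In microglia, Fgr was lower in transplanted tumours (-1.43 ± 0.32, adjusted p = 0.0279), the 1 pathway gene called there, and 0 of 25 were called by type or in the interaction of type and model. The shares of all genes called in microglia were 1.84% by model, 0.47% by type and 0.0116% in that interaction. Card9, the adaptor that links Syk to NF-kB, was higher in type 2 over type 1 transplanted MDM (1.56 ± 0.29, adjusted p = 0.00435) and lower in transplanted over spontaneous type 1 MDM (-1.93 ± 0.29, adjusted p = 0.0003). In MDM it was the 1 of 25 called by type, while by model 5 were lower, Nfkb1 among them (-1.20 ± 0.25, adjusted p = 0.00337), and 1 was higher. Of all genes 5.91% were called by type and 13.7% by model, 7.96% as lower by model. In the interaction of cell type and model 4 were lower, beside 3.12% of all genes, led by Lyn (-2.28 ± 0.52, adjusted p = 0.0191) and Card9 (-1.60 ± 0.39, adjusted p = 0.0262). The interaction of cell type and type called 0 of 25, with Fgr (2.78 ± 0.65, adjusted p = 0.0519) and the DAP12 gene Tyrobp (2.23 ± 0.60, adjusted p = 0.0854) nearest. It called 0.749% of all genes.

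Of 16 genes for products that these receptors induce, 14 were tested, and 4 were higher and 4 lower in MDM (median log2 fold change of 0.58). Over all genes 23% were higher and 19.8% lower, with a median of 0.07. The growth factor gene Csf2 (3.62 ± 0.49, adjusted p = 8.34e-06), the cytokine genes Il10 (4.95 ± 0.75, adjusted p = 3e-05) and Il1b (1.89 ± 0.42, adjusted p = 0.00119) were higher and the chemokine gene Ccl3 was lower (-1.57 ± 0.38, adjusted p = 0.00282). T cells also make Csf2 and Il10. In microglia Ccl3 was lower in transplanted tumours (-1.96 ± 0.47, adjusted p = 0.0393), the 1 of 14 called, and by type 0 of 14 were called. In MDM 0 of 14 were called by type, with Il1b at 2.49 ± 0.76, adjusted p = 0.0602. By model in type 1 MDM the inflammasome sensor Nlrp3 was lower (-2.53 ± 0.55, adjusted p = 0.00472) and the transcription factor Egr3 higher (3.48 ± 1.11, adjusted p = 0.0445). Nlrp3 was the 1 gene of this list called in the interaction of cell type and model (-2.81 ± 0.75, adjusted p = 0.0401), and 0 of 14 were called in the other interactions. Of all genes, 1.84% were called by model and 0.47% by type in microglia, and 13.7% by model and 5.91% by type in MDM. The interactions called 4.51% (cell type by model), 0.749% (cell type by type) and 0.0116% (type by model). With 14 genes, counts this small say little about the list.

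Of 31 other C-type lectin genes, 23 were tested, and 14 were higher and 4 lower in MDM, with a median log2 fold change of 1.69. Over all genes 23% were higher and 19.8% lower, with a median of 0.07. The dendritic cell receptor genes Cd209a (8.04 ± 0.70, adjusted p = 7.05e-08) and Clec9a (6.50 ± 0.55, adjusted p = 5.6e-08), Cd209d (6.31 ± 0.63, adjusted p = 3.27e-07) and Clec4g (5.03 ± 0.50, adjusted p = 2.57e-07) had the smallest p. In microglia the scavenger receptor gene Colec12 was lower in transplanted tumours (-4.30 ± 0.86, adjusted p = 0.0154), and 0 of 23 were called by type. The same comparisons called 1.84% (model) and 0.47% (type) of all genes. The mannose receptor gene Mrc1 and Cd302 were the 2 called by type and by model in MDM, comparisons that share the 4 type 1 transplanted libraries and called 5.91% and 13.7% of all genes. Mrc1 was higher in type 2 over type 1 transplanted MDM (3.83 ± 0.73, adjusted p = 0.00561) and lower in transplanted over spontaneous type 1 MDM (-3.30 ± 0.73, adjusted p = 0.00558). Cd302 differed by 2.31 ± 0.44, adjusted p = 0.00565 by type and by -1.65 ± 0.44, adjusted p = 0.0186 by model. Mrc1 was also the 1 of 23 called in the interaction of cell type and model (-4.07 ± 1.01, adjusted p = 0.027), and the other interactions called 0 of 23. Over all genes the shares were 4.51% for cell type by model, 0.749% for cell type by type and 0.0116% for type by model. Mrc1 is itself a marker of border-associated macrophages, whose summed genes were lowest in the type 1 transplanted MDM libraries, as given above.

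Across the 12 microglia libraries, the genes whose log2 levels were most like each receptor differed from receptor to receptor. These Pearson correlations are a description over libraries that share tumour classes and depth. The 2 highest were picked from all tested genes, predicted genes aside, over only 12 libraries, so a high r can arise without any relation. Clec10a had no read in 3 of the 12 and Clec4e in 2, so their r also depends on which libraries held none. For Clec7a the nearest were Mlana (r = 0.949) and Olfr110 (r = 0.921), for Clec5a Rfx3 (0.850) and Bok (0.840), and for Clec4a3 Ly6i (0.923) and Cd47 (0.855). The nearest genes were Il22ra2 (0.883) and Plpp3 (0.880) for Clec4a2, and Apol9b (0.920) and Ifi213 (0.899) for Clec4a1. Among the receptors that were low in microglia, Clec10a was most like Csprs (0.975) and Cd93 (0.936), Clec12a like Klra2 (0.919) and Sirpb1c (0.877), and Clec4n like Rtca (0.911) and Anxa7 (0.887). Clec4d was most like Cxcl2 (0.910) and Adam8 (0.870), and Clec4e like Slfn1 (0.922) and Anxa1 (0.917). Between receptors the highest r was 0.734 for Clec4e and Clec12a, then 0.713 for Clec4d and Clec4n, and the lowest was -0.589 for Clec7a and Clec4a1.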

How the data were processed

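The authors deposited 1 table of log2-scale values, whose form is that of variance-stabilised counts, genes with no read standing at 4.22. STAR 2.7.8a, DESeq2 and the build mm10 are named in the submitters' processing notes. Per the labels' protocols, RNA was extracted with TRIzol and miRNeasy Micro and amplified with SMART-Seq v4; the strand of reads is not given in the sources used here. The design had assumed normalised counts. The transformation was inverted here, and 100% of values came back as whole reads within 1e-06, with size factors of 0.62 to 1.55. Detected genes numbered 16297 to 21435 per library, and 4 of 25 labelled samples had no column and were not analysed here.

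limma 3.58.1 (R 4.3.3) with a trend was fitted to log2(normalised count + 1), with 1 mean for each of 8 groups, over 17216 genes with at least 10 normalised counts in at least 3 libraries, with Benjamini-Hochberg adjustment and a threshold of 0.05. The procedure was also run on simulated counts with 200 changed genes, and the outcome is not given here. Those counts held no mixture of cell types and no pairing of libraries, so the run does not bear on either. Tables were made with Python 3.11.15 (pandas 2.3.3). Exon lengths came from GENCODE, positions and promoters from RefSeq GRCm38.p6. The members, gene lists and tests were chosen with earlier results of these data known. Named genes are the 10 members, for each the 2 most like it over microglia, and from each of 3 lists the 4 with the smallest p between cell types and up to 2 in each other comparison; other lists were marker genes of the cell types a sort could hold. Of the remaining marker lists, 4 of 5 B cell genes were higher in MDM, 2 of 9 tested neutrophil genes were higher and 1 lower, 5 of 8 border-associated macrophage genes were higher and 1 lower, and 1 of 10 neural and glial genes was higher and 1 lower.

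Other settings were no filter, a minimum of 50 normalised counts, a pseudocount of 8, the same total per library, quantile normalization, array weights, a replicate block, the deposited values, voom on recovered reads, only the groups compared, and each library left out in turn. Leaving out the 5 MDM libraries highest in T and NK cell genes, that together with 1 microglia library, and the contrasts within single classes were chosen after seeing the data.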

Additional observations from a re-analysis of the deposited data

Results flagged for a closer look

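For 3 receptors the difference between transplanted and spontaneous type 1 tumours itself differed between MDM and microglia, by the interaction term of the limma fit. The interaction was -4.46 ± 0.60, adjusted p = 0.00121 for Clec5a, -3.31 ± 0.53, adjusted p = 0.00312 for Clec7a and -3.12 ± 0.63, adjusted p = 0.0106 for Clec4a2. For Clec5a the model difference was -3.84 ± 0.44 in MDM and 0.62 ± 0.41 in microglia, and all 4 transplanted MDM libraries were below both spontaneous ones. Clec4a2 differed by -2.86 ± 0.46 in MDM and 0.26 ± 0.43 in microglia.

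For 2 receptors the difference between type 2 and type 1 transplanted tumours differed between the cell types, with 4.23 ± 0.53, adjusted p = 0.00244 for Clec7a and 3.84 ± 0.60, adjusted p = 0.00739 for Clec5a. Clec7a was 2.07 ± 0.38 in MDM and -2.17 ± 0.36 in microglia, so its direction was opposite in the cell types. All 5 results rest on the 4 type 1 transplanted MDM libraries, which were the lowest of the 9 in microglia genes and in monocyte-derived genes. Their summed counts of T and NK cell genes were 153318 to 185825. The part of those cells in the results was not tested. In the group of 4 libraries Dixon's ratio, the gap of an end library to its neighbour over the whole range, passed 0.829 for no receptor. With 4 libraries that limit is hard to pass. The ratio was 0.811 for the highest Clec4n library and 0.749 for the lowest Clec10a library.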

How the results depend on the processing

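Of 1984 recomputed fold changes of the receptors, 1860 kept their direction and their side of the threshold, 19 lost a call, 25 gained one and 80 changed sign. Of the sign changes, 2 were of a called value, both of Clec7a between cell types: 0.10 without the 5 lymphocyte-rich MDM libraries and 0.14 without type 1 spontaneous microglia replicate 2 as well. Over the 21 fits that each left out 1 library, Clec7a there ranged from -1.19 to -0.83. Clec4a2 was 0.72 and 0.63 there. The cause was not tested. Of 174 recomputed counts of called receptors, 11 moved by more than 1.5 times. By type in microglia (0 called) array weights and only the groups compared each gave 1. By model in microglia (0) array weights gave 1, and leaving out a library 0 to 1 (1 without replicate 3 of type 1 or type 2 spontaneous microglia). By type in transplanted MDM (3) the deposited values gave 5, voom 6, only the groups compared 0, and leaving out a library 1 to 3 (1 without type 2 transplanted MDM replicate 3). For type by model in microglia (0) array weights gave 2, and leaving out a library 0 to 1 (1 without type 1 spontaneous microglia replicate 3). How many of all genes each of these settings called is not given here, so a moved count need not be particular to the receptors. In the cell type by type interaction, Clec4a2 was also called without type 2 transplanted MDM replicate 1 (2.51, adjusted p = 0.0465).

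Other sign changes were of values not called. With the same total per library they were Clec4a2 0.17 (MDM over microglia), Clec4a3 0.14 and Clec12a 0.030 (model in microglia), Clec4d 0.13 (type by model in microglia), Clec12a 0.088 (cell type by model), Clec7a 0.023 (type in spontaneous microglia). With array weights they were Clec12a -0.12 (type in microglia), Clec4a1 0.34 and Clec4a3 0.22 (model in microglia), Clec4a1 -0.55 and Clec12a 0.43 (cell type by model), Clec4e 0.35 (cell type by type). With quantile normalization they were Clec4a3 0.032 (model in microglia), Clec7a 0.052 (type in spontaneous microglia). With a pseudocount of 8 they were Clec4d 0.38 (type by model in microglia), Clec4e 0.56 (cell type by type). With the deposited values they were Clec4d 0.38 (type by model in microglia), Clec10a -0.40 (cell type by model), Clec4e 0.87 (cell type by type). With voom they were Clec4d 0.077 (type by model in microglia), Clec12a 0.14 (cell type by model). When each library was left out in turn, the ranges that crossed 0 were Clec4a2 -0.20 to 0.069 (MDM over microglia); Clec4e -1.29 to 0.60 and Clec4n -0.11 to 0.57 and Clec12a -0.32 to 1.13 (type in microglia); Clec4a2 -0.070 to 0.30 and Clec12a -0.98 to 0.51 and Clec4a1 -0.77 to 0.014 and Clec4a3 -0.16 to 0.16 (model in microglia); Clec4a1 -0.39 to 2.09 (type in transplanted MDM); Clec4a1 -2.15 to 0.045 and Clec4e -3.59 to 0.86 (model in type 1 MDM); Clec4d -2.21 to 1.48 (type by model in microglia); Clec4a1 -0.19 to 2.00 and Clec4a3 -1.61 to 0.037 and Clec12a -1.65 to 1.33 (cell type by model); Clec12a -0.19 to 1.81 and Clec4e -1.87 to 0.98 and Clec4a3 -0.065 to 1.33 (cell type by type); Clec7a -0.18 to 0.12 (type in spontaneous microglia); Clec4a2 -0.017 to 0.51 (MDM over microglia in type 2 spontaneous tumours); Clec5a -2.18 to 0.094 and Clec4a2 -0.44 to 0.63 and Clec7a -0.12 to 1.30 (MDM over microglia in type 2 transplanted tumours).

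The all-gene median moved, with every library scaled to 1 total, by 0.23 between cell types, 0.12 by type and 0.15 by model in microglia, -0.28 by type in transplanted MDM, 0.54 by model in type 1 MDM, 0.19 for type by model, 0.48 for cell type by model and -0.49 for cell type by type, and quantile normalization moved it by -0.13 between cell types and 0.10 for cell type by type. Of the genes called, 53.7% were higher in MDM, 67.4% with the same total. Such shares were 54.6% and 64.8% by model in microglia, 50% and 29.5% by type in transplanted MDM, 42.1% and 75.5% by model in type 1 MDM, 30.9% and 65.6% for cell type by model, 52.7% and 22.3% for cell type by type, and 50% and 66.7% for type by model, which called 2 genes.

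MDM and microglia libraries share replicate numbers, but the labels do not say that a number marks an animal. Such pairs were compared for 7 numbers, leaving out type 2 spontaneous replicate 3, whose MDM group has 1 library. Deviations from the group means correlated at 0.035 to 0.241 within pairs. Among libraries of the other cell type in the same class, 14 of 14 libraries correlated best with their own number. In groups of 2 libraries the deviations mirror each other, so these matches are not independent. With the replicate number as a block (consensus correlation 0.140), the counts of called receptors were 9 between cell types, 0 by type, 0 by model and 0 for type by model in microglia, 3 by type and 4 by model in MDM, and 3 and 2 in the interactions of cell type with model and with type. For the cell type by type interaction, 298 genes were called with the block and 129 without it. All-gene counts with the block are not given here for the other comparisons. Low receptors limit the precision most: standard errors reached 2.56 for Clec4e in the interactions.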
